A study of Homo sapiens with 8 samples.

Results

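The genes described here make, move and sense cholesterol: the enzymes of the mevalonate and sterol pathway, the SREBP transcription factors and the proteins that process them, carriers and exporters of sterols, and 4 enzymes of fatty acid synthesis. A list of 35 genes was read through the array's annotation, with the probe set of highest mean signal standing for each gene. Of the 35 genes 33 were measured among 19775 genes in all. FDFT1 was not analysed here, and the probe sets of CYP51A1 were left out because the annotation gives them to a second gene as well. Expression was measured on 8 Affymetrix arrays of MDA-MB-231, human breast cancer cells of metastatic origin that express mutant p53. All cells carried a retroviral construct for a hairpin RNA against GFP, which serves as a control hairpin, and all went without serum for 24 h. One group of 4 arrays came from cells given TGFβ for 3 h at a labelled dose of 5 µg/ml, and the other 4 came from cells left untreated. Each group has the replicate letters A to D, called biological replicates in the labels, which do not explain what arrays of a shared letter have in common. The series asks which genes TGFβ and mutant p53 control together; arrays of p53-depleted cells are not analysed here.

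Cells build cholesterol from acetyl-CoA through mevalonate, squalene and lanosterol. When sterols in the endoplasmic reticulum run low, as they can without serum lipoproteins, SCAP carries the SREBP precursors to the Golgi, where the proteases MBTPS1 and MBTPS2 release the active factors, and INSIG proteins hold SCAP back when sterols are plentiful. Active SREBP2 mainly switches on the sterol enzymes and SREBP1 mainly the fatty acid enzymes, while an excess of sterols acts through the oxysterol receptors LXR on exporters such as ABCA1 and ABCG1. TGFβ signals through SMAD factors and has most often been studied in these cells for invasion and metastasis.

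The sequences below are the promoters of the gene with the largest difference and of a pair of sterol-pathway genes that hold a sterol regulatory element. They run from 250 bases before to 50 bases after the RefSeq transcript start (GRCh38.p14), are written 5′ to 3′ on the strand of the gene, and lie at chr9:104928106-104928405 (minus strand, ABCA1), chr22:41832855-41833154 (plus strand, SREBF2) and chr1:155308616-155308915 (plus strand, FDPS). Capitals in ABCA1 mark an E-box and a direct repeat of the kind that LXR binds, and capitals in SREBF2 and FDPS mark a sterol regulatory element and CCAAT boxes.
ABCA1: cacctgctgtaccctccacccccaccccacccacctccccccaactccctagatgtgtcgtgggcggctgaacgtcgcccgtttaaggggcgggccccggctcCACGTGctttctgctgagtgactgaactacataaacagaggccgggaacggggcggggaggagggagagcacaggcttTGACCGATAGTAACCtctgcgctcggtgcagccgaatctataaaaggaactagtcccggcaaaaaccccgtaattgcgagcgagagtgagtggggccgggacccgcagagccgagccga
SREBF2: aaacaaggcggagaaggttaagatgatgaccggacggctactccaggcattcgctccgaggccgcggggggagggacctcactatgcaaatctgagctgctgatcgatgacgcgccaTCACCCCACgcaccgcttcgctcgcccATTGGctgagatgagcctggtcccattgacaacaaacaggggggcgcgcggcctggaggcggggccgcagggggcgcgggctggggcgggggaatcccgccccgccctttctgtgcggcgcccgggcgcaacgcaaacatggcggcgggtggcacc
FDPS: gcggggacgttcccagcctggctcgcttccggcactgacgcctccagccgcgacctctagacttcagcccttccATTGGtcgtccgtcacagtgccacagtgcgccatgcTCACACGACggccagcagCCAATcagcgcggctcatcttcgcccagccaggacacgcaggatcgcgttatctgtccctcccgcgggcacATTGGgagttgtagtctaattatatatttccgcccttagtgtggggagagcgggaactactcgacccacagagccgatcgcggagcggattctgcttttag
The ABCA1 repeat (GGTNA, any 5 bases, GGTNA) lay on the opposite strand and its match began at -69, counted in bases from the transcript start, and the E-box (CACGTG) began at -147. The sterol regulatory element (TCACNCNAC) began at -133 in SREBF2 and at -140 in FDPS. CCAAT boxes, which bind the factor NF-Y that works together with SREBP, began at -106 in SREBF2 and at -176, -122 and -51 in FDPS.

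RefSeq promoters were found for 29 of the 33 genes, 39 promoters in all, and not for ACAT2, SQLE, ABCG1 and FASN. Each motif was searched on both strands. A CCAAT box stood in 25 of the 39 promoters (64.1%), against 34.6% of all 35116 promoters. The sterol regulatory element stood in 3 of the 39 (7.69%; FDPS, HSD17B7 and SREBF2), against 2.55% of all promoters. The E-box stood in 6 of the 39 (15.4%), against 7.26% of all, and the LXR repeat in 2 (5.13%; ABCA1 and HMGCS1), against 0.626% of all. The letters were chosen with the ABCA1 promoter known, and a match describes letters and not a bound site.

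After TGFβ the cholesterol and SREBP genes stayed close to their untreated signals, with ABCA1 as the single large difference. None of the 33 genes passed in limma at an adjusted p of 0.05, where 0.576% of all genes passed, and 1 (ABCA1) had an unadjusted p under 0.05, where 8.14% of all genes had one. With the letter as a replicate block 1 of the 33 passed, again ABCA1, where 3.57% of all genes passed; 3 of the 33 had an unadjusted p under 0.05 in that fit, against 15.3% of all genes. The share of the list that passed was thus near that of all genes in either fit. ABCA1 apart, every difference of the probe sets that stand for the genes was smaller than 1.5-fold, a size that 1 of the 33 genes and 1.68% of all genes reached.

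**Figure D1:**
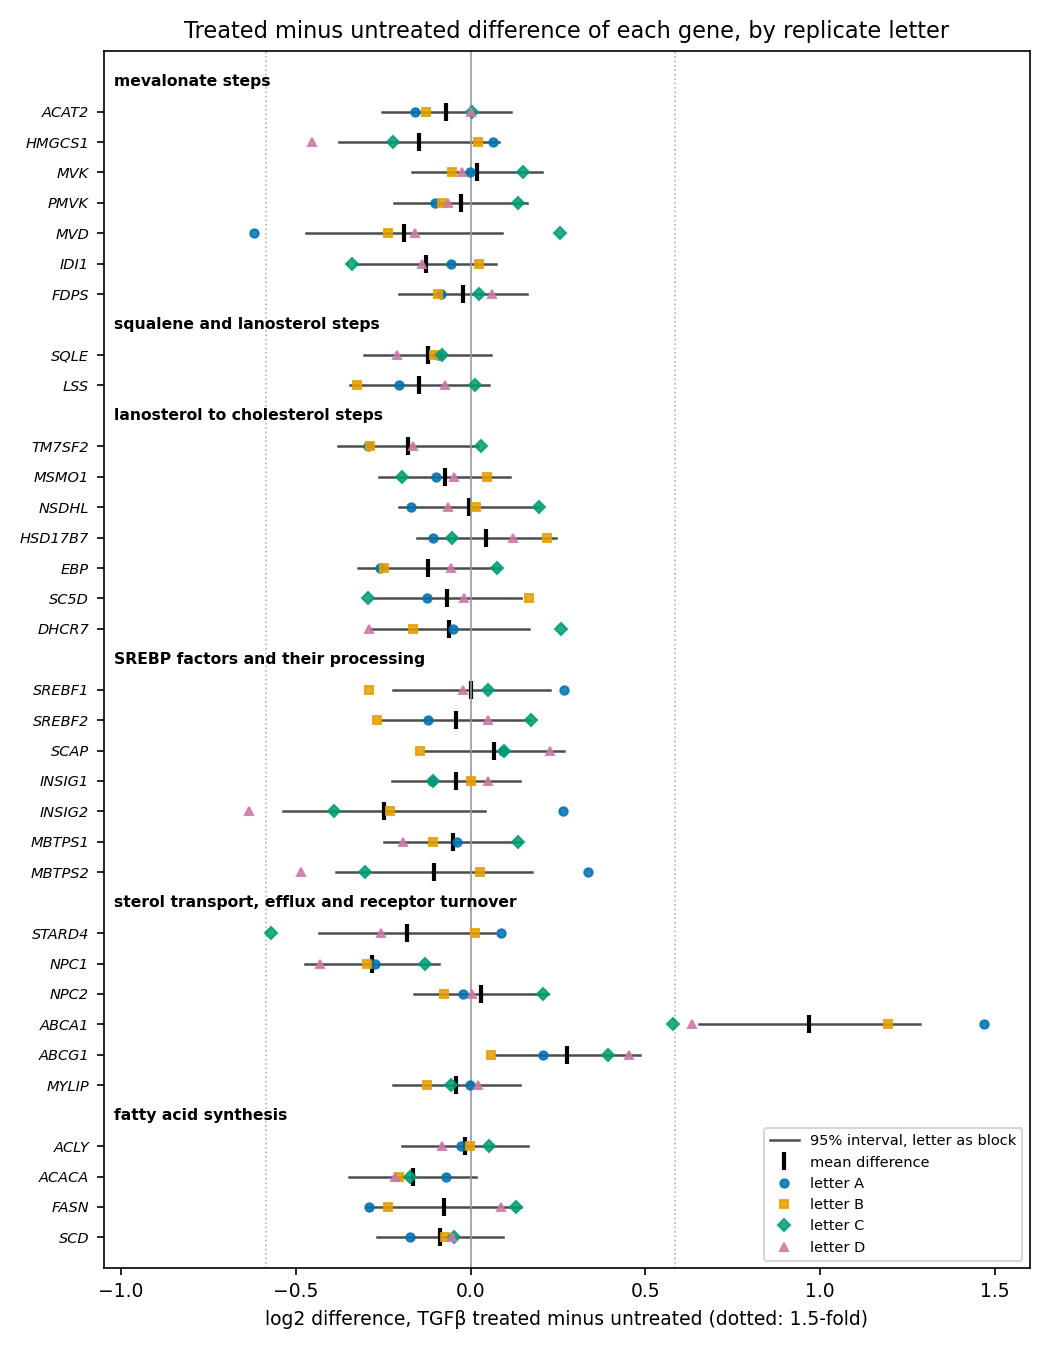
Log2 difference, treated minus untreated, of each of the 33 genes (rows, grouped by role), with 1 coloured point per replicate letter, the mean of the 4 letters as a black tick and the 95% interval of the block fit as a grey line. All genes but ABCA1 have a mean between -0.28 and 0.28, and the points of most genes fall on both sides of 0.

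For all 8 arrays the median signal over probe sets lay between 4.62 and 4.66. The array of treated replicate A stood apart in the 3-prime excess of its control transcripts, at 0.54 for GAPDH and 1.68 for ACTB (log2), against 0.06 to 0.14 and 0.63 to 0.89 on the other 7 arrays. Sterol enzymes that move without this array are given below. The treatment itself was seen in SMAD7, the inhibitory SMAD of TGFβ feedback, which rose by 1.81 ± 0.21 (log2, SE, adjusted p = 0.0039). SKIL, the other early TGFβ target chosen as a check, differed by 1.41 ± 0.35 SE and was higher in all 4 letters. It did not pass in limma without the letter (adjusted p = 0.157) and passed with the letter as a block (0.00205). Precision is limited by the number of arrays, and a p-value here measures only the spread between these samples, which may be technical. Among markers of a basal breast line VIM averaged 13.64, whereas SPARC averaged 3.08 (log2 signal); 6 luminal markers averaged 2.86 (FOXA1) to 11.44 (KRT19), and 3 leukocyte genes averaged 4.27 to 4.86. In bulk RNA fewer cells of a type and less RNA per cell cannot be told apart.

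ABCA1 (Entrez Gene 19) encodes the transporter that hands cellular cholesterol to apolipoprotein acceptors and is a classic LXR target. Its signal was 7.87, 8.39, 7.65 and 7.85 in treated replicates A, B, C and D, against 6.40, 7.20, 7.07 and 7.21 in untreated replicates A, B, C and D (log2). Every treated array lay above every untreated one; groups without overlap were seen in this 1 of the 33 genes and in 5.12% of all genes. The mean was 7.94 ± 0.32 in treated and 6.97 ± 0.38 in untreated cells (SD, n = 4 each), a log2 difference of 0.97 ± 0.20 SE or 1.96-fold, which did not pass in limma over all genes (adjusted p = 0.0774). With the letter as a replicate block ABCA1 rose (adjusted p = 0.00409), and the 95% interval of the fold ran from 1.57 to 2.44.

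The size of the ABCA1 difference varied with the letter. It was 1.47 in A and 1.19 in B, against 0.58 in C and 0.63 in D (log2). Untreated replicate A had the lowest signal of the 8 arrays and treated replicate B the highest. Without treated replicate A, the array with the 3-prime excess, the difference was 0.99 (adjusted p = 0.0901 with no block). Leaving out each array in turn gave differences of 0.78 to 1.07 with adjusted p between 0.0901 and 0.21, and the block fit passed whichever letter was left out (adjusted p between 0.00122 and 0.0435). A second ABCA1 probe set showed 1.00 (log2), with 7.05 in treated and 6.06 in untreated cells. Its other 2 probe sets had mean signals near 3 in both groups and differed by 0.02 and 0.11, so that the mean over all 4 probe sets differed by 0.52.

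ABCG1 (9619), the partner exporter that loads cholesterol onto lipoprotein particles and is likewise an LXR target, had small differences in the same direction; its values are given because it was the other gene higher in all 4 letters, which was noticed after seeing them. The signal was 4.44, 4.26, 4.99 and 4.76 in treated replicates A to D, against 4.23, 4.21, 4.60 and 4.31 in untreated replicates A to D. The groups overlapped, and letter C was the highest of each group. The difference of 0.28 ± 0.16 SE (log2) did not pass (adjusted p = 0.753, and 0.166 with the letter as a block). All 4 of its probe sets differed in that direction, at low signals. The one used averaged 4.61 in treated and 4.34 in untreated cells, where 3 leukocyte genes averaged 4.27 to 4.86. Whether ABCG1 was expressed above background was not tested. Low signals near background understate changes in RMA. Being higher in all 4 letters was seen in 2 of the 33 genes, against 11.7% of all genes.

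**Figure D2:**
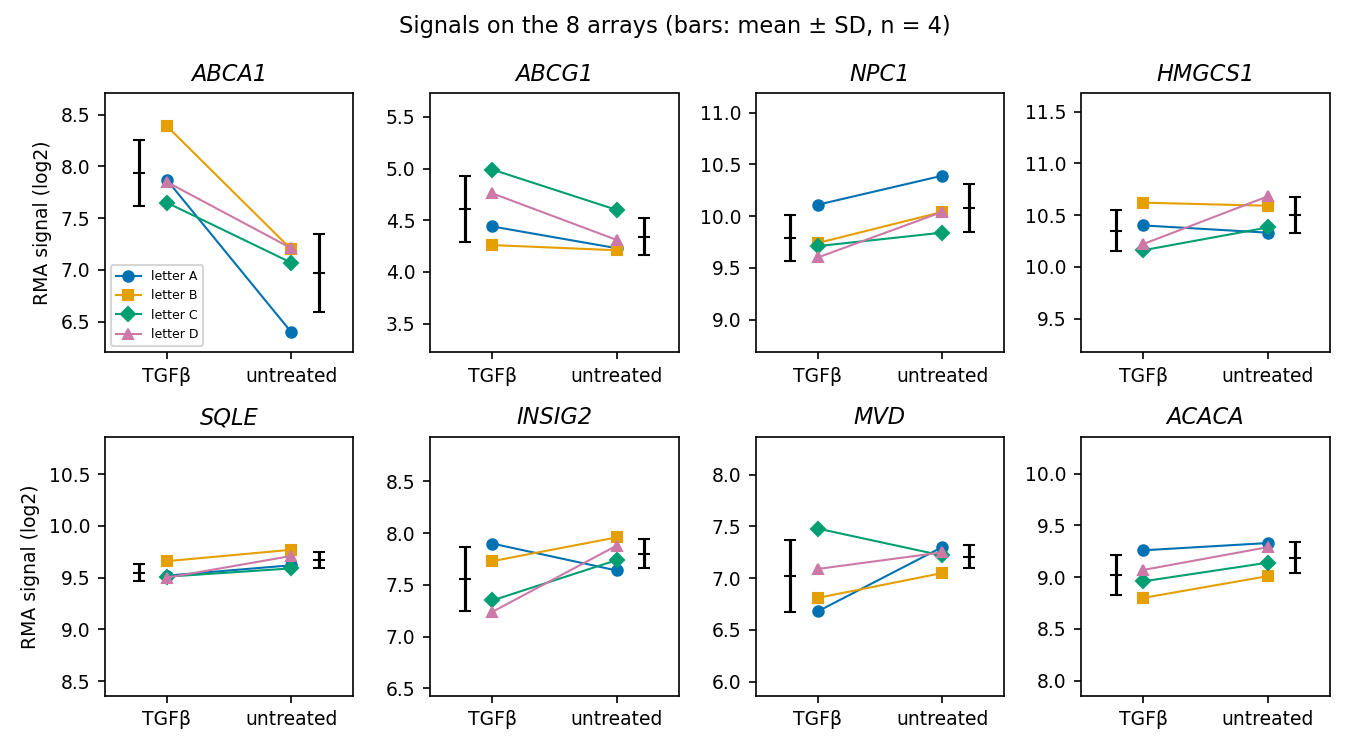
RMA signal (log2) of 8 genes on each array, TGFβ treated on the left and untreated on the right of each panel, with lines joining arrays of the same letter and black bars for the mean ± SD (n = 4 each). In ABCA1 the 4 treated arrays lie at 7.65 to 8.39, above the untreated ones at 6.40 to 7.21, while the groups of the other 7 genes overlap.

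Among the other genes of sterol transport NPC1 (4864), which moves cholesterol out of lysosomes, had the largest difference downward. Its signal was 10.11, 9.74, 9.71 and 9.61 in treated replicates A to D, against 10.39, 10.04, 9.84 and 10.04 in untreated replicates A to D. Each treated array lay below the untreated array of its letter, though the groups overlapped. The difference of -0.28 ± 0.14 SE (log2) did not pass (adjusted p = 0.693, and 0.126 with the letter as a block). NPC2, the soluble partner that passes cholesterol to NPC1, had a difference of 0.03 ± 0.13 SE. STARD4, a cytosolic sterol carrier, had -0.18 ± 0.21 SE, with -0.57 in letter C and 0.09 in letter A. MYLIP, the ubiquitin ligase that sends lipoprotein receptors to degradation and a further LXR target, had -0.04 ± 0.10 SE. By the probe sets that stand for them, ABCA1, ABCG1 and MYLIP thus ranged from -0.04 to 0.97. Of the 6 MYLIP probe sets 5 differed downward. The largest of these differences was -0.27, lower in all 4 letters, and did not pass (adjusted p = 0.6 over probe sets, and 0.191 with the block).

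The enzymes that lead to mevalonate and on to farnesyl diphosphate showed no difference that passed. Over 7 genes the median difference was -0.07, with a range of -0.19 to 0.02 (log2). HMGCS1, which makes the HMG-CoA that enters the pathway, had signals of 10.40, 10.62, 10.16 and 10.22 in treated replicates A to D, against 10.33, 10.59, 10.38 and 10.68 in untreated replicates A to D. Letters A and B gave 0.06 and 0.02, and letters C and D -0.22 and -0.45. Its difference was -0.15 ± 0.13 SE (adjusted p = 0.862). MVD, which decarboxylates mevalonate diphosphate, had signals of 6.68, 6.81, 7.48 and 7.09 in treated replicates A to D, against 7.30, 7.05, 7.22 and 7.25 in untreated replicates A to D. The treated arrays spread over a wider range than the untreated ones, with replicate A lowest and replicate C highest, and the difference was -0.19 ± 0.16 SE (adjusted p = 0.862). The thiolase ACAT2 (-0.07), the kinases MVK (0.02) and PMVK (-0.03), the isomerase IDI1 (-0.13) and the prenyl synthase FDPS (-0.02) had smaller differences. FDPS, whose promoter is shown above, held 11.73 to 11.87 on the treated arrays and 11.79 to 11.84 on the untreated ones.

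The steps that make squalene into lanosterol were both slightly lower without passing. SQLE, the squalene epoxidase and a rate-limiting enzyme of the sterol branch, had signals of 9.52, 9.66, 9.51 and 9.50 in treated replicates A to D, against 9.62, 9.77, 9.59 and 9.71 in untreated replicates A to D. It was lower in all 4 letters, and the difference was -0.12 ± 0.09 SE (adjusted p = 0.829); only 2 of its 4 probe sets differed in that direction. LSS, which folds the epoxide into lanosterol, had signals of 9.98, 10.07, 10.45 and 10.36 in treated replicates A to D, against 10.18, 10.39, 10.43 and 10.43 in untreated replicates A to D. The groups overlapped, letter C showing 0.01 and letter B -0.33, and the difference was -0.15 ± 0.12 SE (adjusted p = 0.862).

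From lanosterol to cholesterol 7 enzymes were measured, and their differences ranged from -0.18 to 0.05 (log2) with a median of -0.07. TM7SF2, a sterol reductase, had signals of 7.56, 7.92, 8.39 and 8.06 in treated replicates A to D, against 7.86, 8.21, 8.37 and 8.22 in untreated replicates A to D. EBP, the sterol isomerase, had signals of 9.39, 9.59, 10.06 and 10.07 in treated replicates A to D, against 9.65, 9.84, 9.99 and 10.12 in untreated replicates A to D. Both genes were lowest in letter A of each group, and their differences of -0.18 ± 0.17 and -0.12 ± 0.17 SE did not pass (adjusted p = 0.886 and 0.94); of the 4 EBP probe sets only 1 differed in that direction. The methyl oxidase MSMO1 (-0.07), the dehydrogenases NSDHL (-0.01) and HSD17B7 (0.05), the desaturase SC5D (-0.07) and the last reductase DHCR7 (-0.06) had smaller differences. SC5D depended on the probe set: its second one, with a lower signal of 4.84 in treated and 5.57 in untreated cells, differed by -0.72, from -1.55 in letter A to -0.03 in letter D, and did not pass (adjusted p = 0.769 over probe sets, and 0.124 with the block). With both averaged the difference was -0.40. The letter A drop of the second probe set involves the array of treated replicate A, which stood apart in its control transcripts. Some further probe sets of LSS, SCD, MVK and HMGCS1 also dropped most in letter A, and others, as in ABCA1 and ABCG1, did not. The second SC5D probe set was lower in letters B (-0.535) and C (-0.773) as well. Whether array quality lowered these signals was not tested. The probe sets that stand for HSD17B7, IDI1 and MYLIP are marked by the array's makers as able to match unrelated transcripts.

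The SREBP factors and their regulators did not pass either, with differences of -0.25 to 0.07. SREBF1, which encodes the SREBP1 proteins, had 8.06 ± 0.20 in treated and 8.06 ± 0.09 in untreated cells (log2, SD, n = 4 each), a difference of 0.00 ± 0.11 SE. SREBF2, which encodes SREBP2, held 7.76 to 8.08 on the treated arrays and 7.83 to 8.20 on the untreated ones, a difference of -0.04 ± 0.11 SE. Transcript levels do not report how much precursor is cleaved. The escort SCAP had a difference of 0.07 ± 0.14 SE, and INSIG1, itself a sensitive SREBP target, -0.04 ± 0.10 SE. INSIG2, the isoform that depends less on SREBP, had signals of 7.90, 7.73, 7.35 and 7.24 in treated replicates A to D, against 7.64, 7.96, 7.74 and 7.88 in untreated replicates A to D. Letter A was higher by 0.26 and the other letters lower by as much as 0.63, so the difference of -0.25 ± 0.15 SE did not pass (adjusted p = 0.779, and 0.416 with the letter as a block). The block fit without both arrays of letter A, one of which has the 3-prime excess, called INSIG2 lower (adjusted p = 0.0319). That fit called 1304 of all 19775 genes, against 705 with every letter kept. The protease MBTPS2 had signals of 8.71, 8.55, 8.13 and 8.03 in treated replicates A to D, against 8.37, 8.53, 8.44 and 8.52 in untreated replicates A to D, with the same order of letters (-0.11 ± 0.15 SE). MBTPS1, which makes the first cut, had -0.05 ± 0.09 SE.

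The fatty acid enzymes had differences of -0.17 to -0.01 (log2), none of which passed. ACACA, the acetyl-CoA carboxylase that makes malonyl-CoA, had signals of 9.26, 8.80, 8.96 and 9.07 in treated replicates A to D, against 9.33, 9.01, 9.13 and 9.29 in untreated replicates A to D. The stearoyl-CoA desaturase SCD had 11.76, 12.04, 11.96 and 11.99 in treated replicates A to D, against 11.93, 12.11, 12.01 and 12.04 in untreated replicates A to D. Both were lower in all 4 letters, but the groups overlapped. The differences of -0.17 ± 0.12 and -0.09 ± 0.09 SE did not pass (adjusted p = 0.829 and 0.908, and 0.378 and 0.681 with the letter as a block). ACLY, which supplies cytosolic acetyl-CoA, had -0.01 ± 0.09 SE, and the fatty acid synthase FASN -0.08 ± 0.14 SE. Lower in all 4 letters were 4 of the 33 genes (SQLE, NPC1, ACACA and SCD), against 10.7% of all genes.

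How large a difference the arrays leave room for can be read from the intervals of limma, which are not adjusted for the number of genes. The intervals given are those of the probe sets that stand for the genes. In the fit without the letter the 95% interval lay within 1.5-fold of no difference in 29 of the 33 genes, where this was so for 86.7% of all genes, and in all 16 sterol enzymes. The lowest bound among the 16 enzymes was -0.56 (TM7SF2) and the highest 0.32 (MVK). With the letter as a block 32 of the 33 genes were within 1.5-fold, against 93.8% of all genes, and the bounds of the 16 enzymes ran from -0.47 (MVD) to 0.24 (HSD17B7). The gene outside was ABCA1. Some other probe sets of the enzymes left more room in the fit without the letter. Among these were 1 each of SC5D (-0.72 ± 0.43 SE), LSS (-0.40 ± 0.36 SE) and MVK (-0.37 ± 0.35 SE). A difference of 1.5-fold is therefore not excluded for every probe set of the enzymes.

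The shift was small and ran mostly downward, but not evenly over letters. A negative difference was seen in 26 of the 33 genes and in 14 of the 16 sterol enzymes, where 47.2% of all genes had one. The median difference was -0.07 over the 33 genes, against 0.01 over all genes. Among the upper 60% of signals, which hold 32 of the 33 genes, it was -0.07 for the list and -0.02 for all genes. The median of all genes there is below 0, so their share of negative differences exceeds the 47.2% found over every signal level. By letter, with no filter on signal, the median was -0.09 in A, -0.09 in B, 0.03 in C and -0.06 in D for the 33 genes. For all genes it was 0.02 in A, -0.03 in B, 0.05 in C and 0.00 in D. With no such filter the median of the list thus lay below that of all genes in every letter. By letter the list was not compared with genes of like signal. In letter C 14 of the 33 genes had a negative difference, against 25 in A and 22 each in B and D. Without treated replicate A, the array with the 3-prime excess, the median of the 16 enzymes was -0.02 in place of -0.07, and 10 of them had a negative difference in place of 14. Without untreated replicate A it was -0.12 with 15 negative, and without both arrays of letter A -0.06 with 13 negative. Without treated replicate A the median of the 33 genes was -0.04, and among the enzymes TM7SF2 had -0.04, MVD -0.08, LSS -0.07 and ACAT2 -0.01 (log2). In that fit EBP had 0.01, NSDHL 0.11 and MVK 0.12, against -0.12, -0.01 and 0.02 with every array kept.

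**Figure D3:**
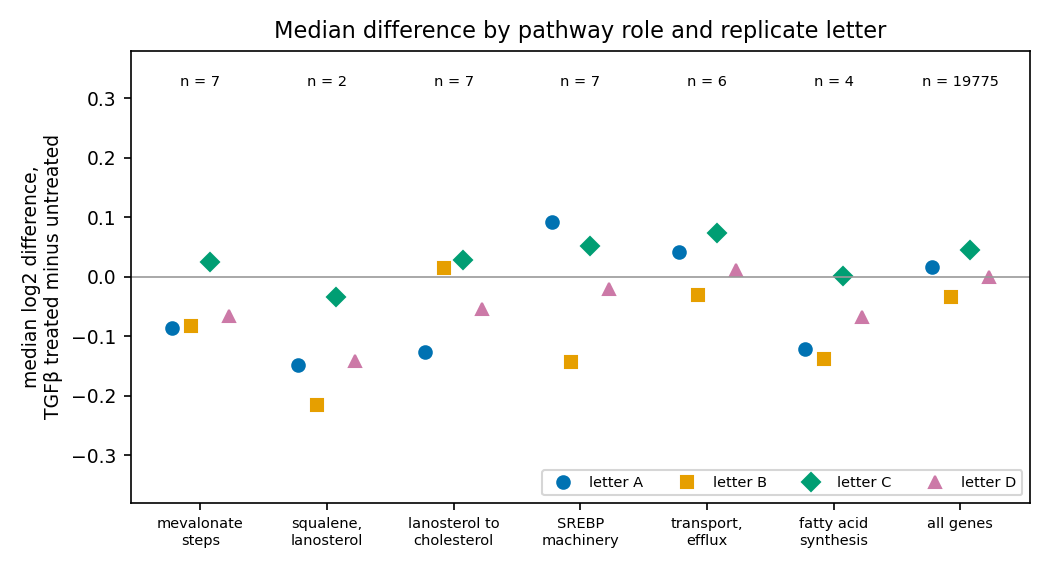
Median log2 difference, treated minus untreated, over the genes of each role (columns, with the number of genes) and over all genes, with 1 point per replicate letter. Letters A and B lie below letter C in every column but that of the SREBP factors and their processing, where letter A is highest, all genes included, and no median reaches beyond -0.22 or 0.09.

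The range between letters was also set beside the treatment difference. A range over several means of few arrays tends to exceed a difference between means of more arrays, even where nothing differs. The comparison therefore cannot decide whether the letters mattered more than the treatment. The range between letters, taken over the means of both arrays of a letter, was larger than the size of the treatment difference in 32 of the 33 genes (97.0%), against 89.0% of all genes. Its median was 0.33 (log2) over the 33 genes, against a median difference of 0.07 in size. The range was 0.75 for STARD4, 0.67 for TM7SF2 and 0.57 for EBP. In ABCA1 it was 0.66, below its difference of 0.97.

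**Figure D4:**
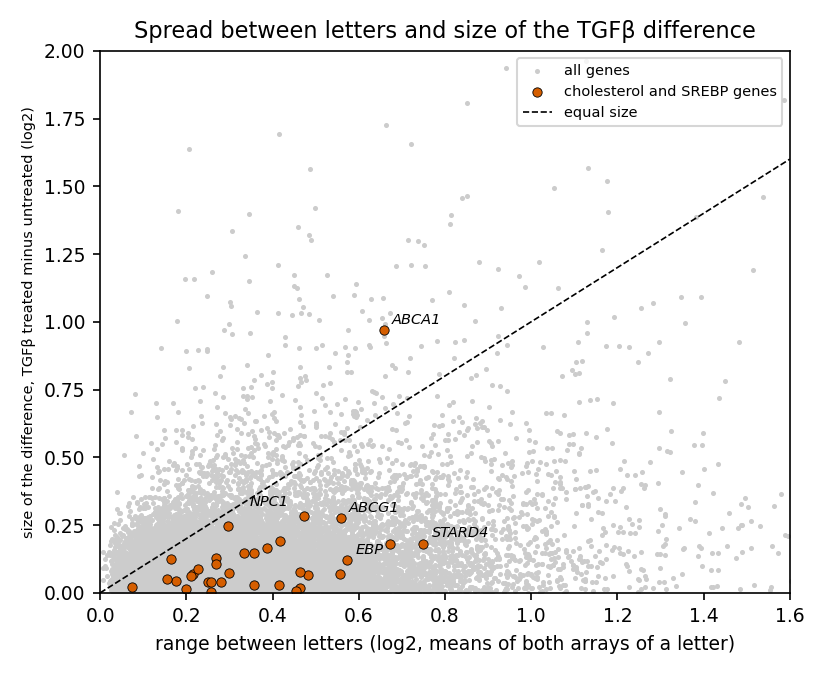
Range between letters (x axis, log2) and size of the treated minus untreated difference (y axis, log2) for the 33 genes in orange and all genes in grey, with equal size as a dashed line; 35 genes lie outside the axes. Of the 33 genes ABCA1 is the one above the dashed line.

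Other genes of the pathway, from 5 lists with 57 genes of which 52 were measured, held few calls as well. None passed in limma at an adjusted p of 0.05 (0.576% of all genes), 5 had an unadjusted p under 0.05 (8.14% of all genes), and with the letter as a block 2 fell and none rose (3.57% of all genes passed). A negative difference was seen in 28 of the 52 (53.8%), against 47.2% of all genes. Both that fell are SREBP targets of the fatty acid side: LPIN1, a phosphatidate phosphatase, had a log2 difference of -0.42 (adjusted p = 0.022 with the block and 0.526 without), and MID1IP1, an activator of acetyl-CoA carboxylase, -0.40 (adjusted p = 0.0391 and 0.428). In LPIN1 the treated arrays A to D held 9.33, 10.10, 9.57 and 9.73, against 9.81, 10.40, 10.10 and 10.11 in untreated A to D. The difference had the same direction in all 4 letters, although the groups overlapped. With any 1 letter left out the block fit, then on fewer arrays, gave differences of -0.46 to -0.39 in LPIN1 and -0.46 to -0.34 in MID1IP1, and called LPIN1 in 1 of 4 cases and MID1IP1 in 0 of 4. The medians of the lists were -0.12 for 12 SREBP targets and fatty acid genes, -0.01 for 7 genes of sterol sensing at the endoplasmic reticulum, 0.00 for 8 LXR receptors and targets, 0.02 for 14 genes of sterol esters, carriers and lipoprotein receptors, and -0.04 for 11 genes of the nonsterol isoprenoid branch, against 0.01 for all genes.

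In the lists without a gene that passed, the gene of smallest p was named. ERLIN2, which helps to degrade sterol-regulated proteins, had -0.17 ± 0.10 SE (adjusted p = 0.75). SMPDL3A, an LXR-induced phosphodiesterase, had -0.29 ± 0.14 SE (adjusted p = 0.653). Its adjusted p in limma was 0.179 once the letter was a block, and 0.0329 in that fit without letter A, which called 1304 of all 19775 genes. LIPA, the lysosomal acid lipase that frees cholesterol from its esters, had -0.25 ± 0.10 SE (adjusted p = 0.526; blocked on the letter, 0.141). FNTB, the beta subunit of the farnesyltransferase, had -0.45 ± 0.12 SE (adjusted p = 0.203; blocked on the letter, 0.0533). In LIPA and FNTB the groups did not overlap, as in 4 of the 52 genes and 5.12% of all genes. Only 1 of 2 probe sets differed downward in LIPA, and likewise in SMPDL3A. In ERLIN2 2 of 3 did, and FNTB has 1 probe set.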

How the data were processed

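Total RNA was taken with Trizol and labelled as biotinylated cRNA, per the labels' protocols. The authors deposited 1 RMA value per probe set and array, per the submitters' processing notes; RMA corrects background, normalizes between arrays and summarises probes. That these deposited values are log2 was inferred from RMA and from their range. No source used here gives the version of RMA or says which arrays were normalized together. RMA gives no detection calls.

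Of 54675 probe sets 62 are controls; 41091 name 1 gene, 1801 several and 11721 none in GEO's platform annotation of 2016, and 41037 of the 41091 were found in the RefSeq table. The probe set of highest mean stood for each of 19775 genes.

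The comparison used lmFit and eBayes of limma 3.58.1 (R 4.3.3, two-sided) with Benjamini-Hochberg adjustment over all 19775 genes. Fits were tested on simulated data. Deviations from the group means correlated between same-letter arrays at 0.49, 0.69, 0.34 and 0.30 for A to D over genes. The pairing by letter is therefore taken from the data, not from the labels. Correlations between different letters are not given here, so pairing letter by letter was not tested against other groupings of the arrays. The fit that takes the letter as a replicate block is given where it changes a call. The fit without the block is the main one.

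The members and lists were chosen with earlier results of these data known. Array values are given for members that passed in either fit and the 2 of smallest p in each role, and in addition for ABCG1. Alternatives were the block, a filter on signal, centring, quantile normalization, a trended prior, other probe sets, and leaving out arrays or letters. Marker lists of early TGFβ targets (5 of 8 measured genes passed), basal breast line (1 of 7), luminal epithelium (1 of 6), leukocytes (0 of 3), endothelium (0 of 4) and adipocytes (0 of 4) were read in the main fit. Python 3.11.15 with matplotlib 3.10.9 drew the figures.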

Additional observations from a re-analysis of the deposited data

Results flagged for a closer look

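In 5 of 66 groups of 4 arrays 1 array stood far from the other 3, by Dixon's ratio of the gap to the range above its critical value; at that value chance flags about 5% of groups. In treated cells this was SQLE in replicate B, at 9.66 against 9.50 to 9.52 (ratio 0.847). In untreated cells these were LSS in replicate A, at 10.18 against 10.40 to 10.43 (0.854), and INSIG1 in replicate A, at 10.32 against 10.04 to 10.06 (0.942). They also were STARD4 in untreated replicate B, at 9.79 against 9.27 to 9.33 (0.889), and ACLY in untreated replicate D, at 11.43 against 11.20 to 11.22 (0.882).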

How the results depend on the processing

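No member passed without the letter, whatever else was altered; with the letter as a replicate block 1 passed (ABCA1), and with 1 letter left out of that fit between 1 and 2, while leaving out single arrays without the block gave 0. The second gene was INSIG2 without letter A, in a fit that called 1304 of all 19775 genes. The number of members higher in all 4 letters was 1 in place of 2 among the upper 60% of signals, which leaves out ABCG1. The medians of the list and of the sterol enzymes moved by less than their spread over the letters under every alternative run. That spread is wide beside the medians, so it could hardly show a move. By letter the enzyme median ran from -0.104 in A to 0.02 in C. Without treated replicate A it was -0.02 in place of -0.072. ABCA1 had adjusted p between 0.058 and 0.135 under the alternatives that keep all 8 arrays without the block. Small differences changed sign: with all probe sets of a gene averaged MVK had -0.091, NSDHL 0.038, SREBF2 0.025 and FASN 0.018; leaving out probe sets prone to match several transcripts, NSDHL had 0.082, EBP 0.076 and MYLIP 0.052; with quantile normalization again NSDHL had 0.01; and with centring SREBF1 had -0.012. The largest move of a member's difference was that of SC5D, to -0.724 with its other probe set alone; with probe sets averaged SC5D had -0.396 and ABCA1 0.524. Leaving out an array or a letter gave ranges across 0 for MVK (-0.074 to 0.116), PMVK (-0.119 to 0.04), FDPS (-0.051 to 0.000), NSDHL (-0.101 to 0.111), HSD17B7 (-0.013 to 0.104), EBP (-0.218 to 0.007), SC5D (-0.215 to 0.019), DHCR7 (-0.168 to 0.015), SREBF1 (-0.087 to 0.099), SREBF2 (-0.113 to 0.034), SCAP (-0.014 to 0.187), INSIG1 (-0.085 to 0.025), MBTPS2 (-0.253 to 0.021), NPC2 (-0.05 to 0.124), MYLIP (-0.089 to 0.035), ACLY (-0.046 to 0.038) and FASN (-0.147 to 0.046). The causes were not tested. Low signals near background, as in ABCG1, limit what the arrays can show. The count of all genes passing was 705 with the block and 114 without. In the fits without 1 array it ran from 46 to 232, and in the block fits without 1 letter from 288 to 1304.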
